A study of Mus musculus with 8 samples.

Results

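Maternally methylated imprinting control regions of the mouse were followed through 8 libraries of embryonic stem cells given vitamin C, L-proline, both or neither. The regions were 10 windows of the mm9 build, 59 kb in all, set by their positions and named here after an imprinted gene at each: Nespas, Peg10, Mest, Peg3, Snrpn, Kcnq1ot1, Plagl1, Grb10, Airn and Impact. Of the 622768 CpGs with at least 10 reads in all 8 libraries, 185 lay in 9 of these windows. Counting CpGs listed in at least 1 library, the 10 windows held 294 of 1026288. The windows with the most shared CpGs were Grb10 (chr11:11924000-11928000) with 61, Nespas (chr2:174118000-174128000) with 52 and Plagl1 (chr10:12808000-12813000) with 35. Impact (chr18:13129000-13134000) had 10, Airn (chr17:12932000-12937000) 9 and Kcnq1ot1 (chr7:150479000-150484000) 6. Mest (chr6:30684000-30690000) and Peg3 (chr7:6678000-6686000) had 5 each, and Snrpn (chr7:67146000-67152000) had 2. The Peg10 window (chr6:4695000-4700000) held 12 CpGs, none of them listed in all 8 libraries, and is described separately.

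All cells were of strain 129/SvP and were kept at low density in medium with FBS and LIF, a cytokine that holds embryonic stem cells in self-renewal. The treatments were no supplement, L-proline at 1 mM, vitamin C at 500 µM, and the combination, and each was sampled at day 2 and at day 5 with 1 library. Methylation was read by reduced representation bisulfite sequencing (RRBS), which samples CpG-rich restriction fragments and reads a protected cytosine as C. It does not separate 5-methylcytosine from 5-hydroxymethylcytosine, and in cells of a single strain these counts do not show which parental allele carries the methyl groups. A level averaged over a culture also cannot tell fewer methylated cells from fewer methylated copies per cell.

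At these regions the oocyte deposits methylation through DNMT3A and DNMT3L, sperm does not, and the difference survives the demethylation of the early embryo. The zinc finger protein ZFP57, which binds a methylated TGCCGC hexamer, recruits TRIM28 and with it the machinery that maintains methylation on the maternal copy. A normally imprinted locus is therefore methylated on one parental copy of each CpG. Embryonic stem cells can lose or gain methylation at such loci in culture. Vitamin C is a cofactor of the TET dioxygenases, which oxidise 5-methylcytosine.

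The promoters of 3 loci are printed, Plagl1 to show the sequence in which measured CpGs lie, and Mest and Snrpn to show the hexamer. They are the RefSeq sequences of build GRCm38.p6, 5′ to 3′ on the gene's strand, 300 bases each, from 250 before to 50 after the start of the gene. The Plagl1 promoter is chr10:13090582-13090881 on the plus strand, and its capitals mark the 15 CpGs that the methylation files list. The Mest promoter is chr6:30737800-30738099 on the plus strand, the Snrpn promoter is chr7:60005150-60005449 on the minus strand, and their capitals mark the hexamer, here as its complement GCGGCA.
Plagl1: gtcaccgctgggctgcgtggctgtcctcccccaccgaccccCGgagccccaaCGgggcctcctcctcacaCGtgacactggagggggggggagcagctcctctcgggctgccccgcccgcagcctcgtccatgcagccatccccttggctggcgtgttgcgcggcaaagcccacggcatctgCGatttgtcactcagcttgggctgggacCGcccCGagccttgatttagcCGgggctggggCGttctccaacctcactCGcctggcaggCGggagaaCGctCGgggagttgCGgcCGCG
Mest: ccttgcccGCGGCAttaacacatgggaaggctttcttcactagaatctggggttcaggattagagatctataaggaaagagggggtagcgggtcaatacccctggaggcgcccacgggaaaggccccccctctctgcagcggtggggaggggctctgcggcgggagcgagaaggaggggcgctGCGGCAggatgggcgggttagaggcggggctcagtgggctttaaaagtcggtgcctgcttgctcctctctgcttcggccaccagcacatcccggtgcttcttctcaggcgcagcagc
Snrpn: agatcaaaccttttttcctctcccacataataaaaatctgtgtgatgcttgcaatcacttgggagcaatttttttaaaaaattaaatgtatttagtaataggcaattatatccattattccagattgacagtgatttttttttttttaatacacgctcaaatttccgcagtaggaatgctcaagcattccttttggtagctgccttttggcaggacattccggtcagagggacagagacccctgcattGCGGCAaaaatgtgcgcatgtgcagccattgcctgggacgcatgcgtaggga

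The Plagl1 sequence was placed on the mm9 windows by the spacing of its CpGs, with no conversion of coordinates. The Mest and Snrpn sequences could not be placed in this way, so whether they hold measured CpGs is not known here. At that placement 15 of the 15 listed CpGs in the stretch fell on a CG of the promoter, and the next best placement matched 7 of 34. The promoter holds 26 CpGs and 1 hexamer, on the other strand and starting at base 161, which contained no listed CpG. Of the 10 loci, 7 had promoter entries, 13 in all, and 5 entries of 4 loci (Mest, Snrpn, Plagl1 and Grb10) held the hexamer on either strand. Over all 32851 promoter sequences given, 11.6% held it. The Mest entries from 30737800 and from 30737803 are nearly the same sequence, and both count among the 5. Whether these loci hold the hexamer more often than other promoters was not tested. Nespas, Peg10 and Impact had no entry.

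Between 760578 and 1004600 CpGs were listed per library, with a median coverage of 27 to 56 reads, and 25 to 58 reads at the 185 CpGs of the control regions. Mean methylation over the CpGs shared by all libraries ranged from 16.1% to 24.0%. The lambda contig of the files, usually an unmethylated spike-in, read 0.195% to 0.513% methylated (842 to 8888 reads).

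The control regions stood at intermediate methylation. Of their 185 CpGs, 175 (94.6%) had a mean over the 8 libraries between 20% and 80%, 10 were below 20% and 0 above 80%. Among all 622768 CpGs, 13.0% were intermediate, 74.4% lower and 12.6% higher. The 10 low CpGs were 7 of the 10 at Impact, 2 of the 52 at Nespas and 1 of the 61 at Grb10.

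Ordered by the mean over the 8 libraries (± SD, n = 8), Airn was highest at 44.9% ± 5.20, followed by Peg3 at 44.6% ± 5.34 and Kcnq1ot1 at 43.6% ± 8.26. Airn and Kcnq1ot1 encode long noncoding RNAs that silence neighbouring genes in cis from the unmethylated paternal copy, and Peg3 encodes a zinc finger protein. Plagl1, the gene of a zinc finger transcription factor, followed at 42.7% ± 4.90. Snrpn, which encodes a small nuclear ribonucleoprotein in the Prader-Willi region, stood at 38.9% ± 9.24. Nespas, a noncoding RNA antisense to Nesp at the Gnas locus, stood at 37.3% ± 4.85. Grb10, an adaptor that restrains insulin and IGF signalling, was at 33.5% ± 6.68, and Mest, a member of the alpha/beta hydrolase family, at 33.0% ± 8.67. Neighbours in this order differed by less than their SDs down to Mest. Impact, which encodes an inhibitor of the kinase GCN2, was apart at 14.7% ± 10.2.

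Since CpGs on one read share a molecule, CpGs within a block of under 100 bases were counted as 1 set of reads for the counting error. With such 95% Wilson intervals, 50% lay inside the interval in 7 of 8 libraries at Peg3, at Kcnq1ot1 and at Airn. Grb10 and Impact were below 50% in 8 of 8 libraries, and Nespas in 7. The plot of levels by treatment shows these intervals.

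**Figure D1:**
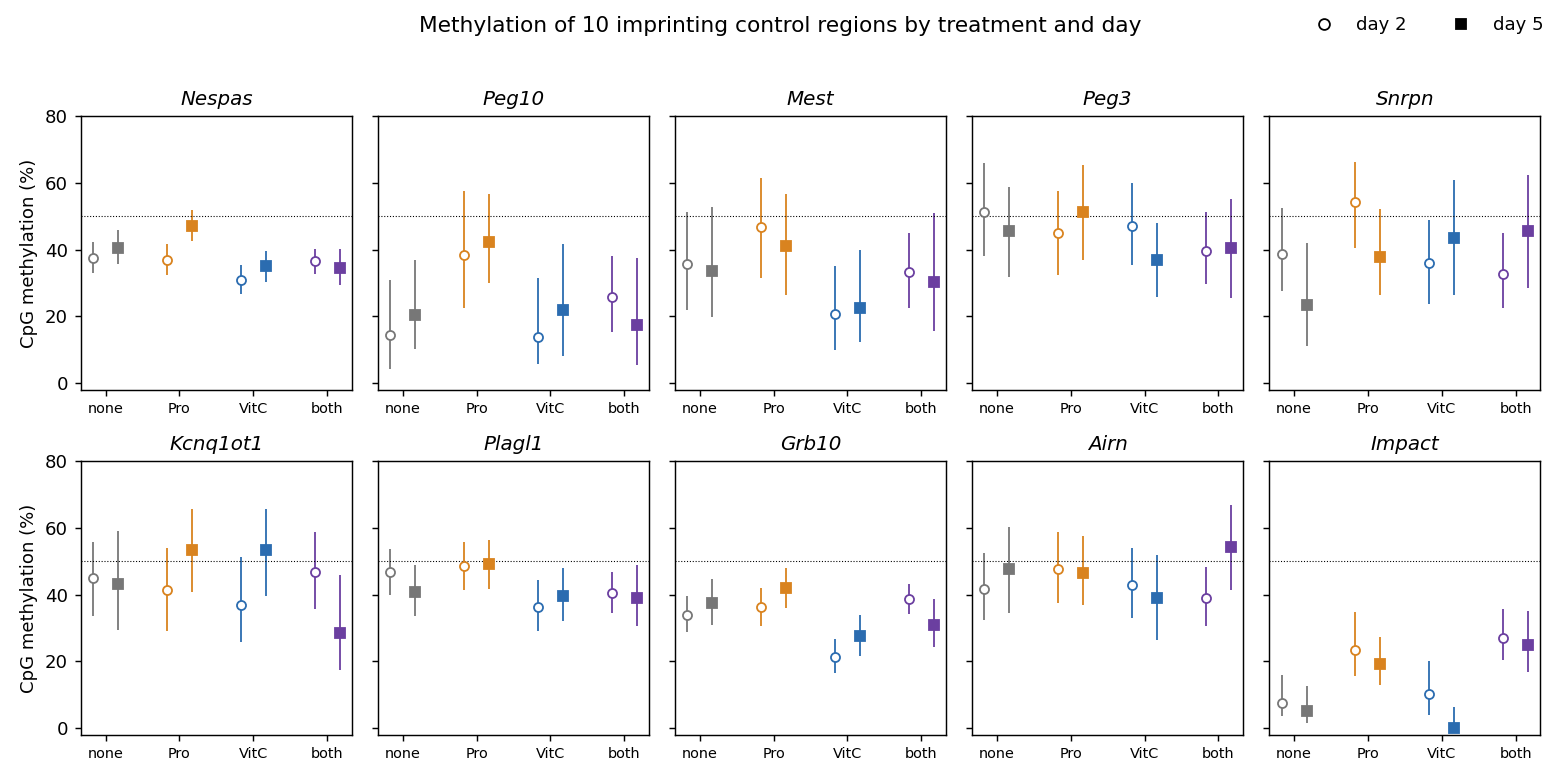
Mean CpG methylation (%) of each control region by treatment (none, L-proline, vitamin C or both), with open circles for day 2 and filled squares for day 5, 1 library each. Bars are 95% Wilson intervals on block reads and cover counting error only, and the dotted line marks 50%. Peg10 uses the CpGs each library lists. At Impact the 4 libraries with L-proline lie at 19.1% to 27.0% and the others at 0% to 10.1%.

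With vitamin C, 7 of the 9 regions with shared CpGs had a negative mean difference, and Nespas, Mest, Peg3 and Plagl1 were lower in 4 of 4 matched pairs. A matched pair is a library with vitamin C and the library without it at the same L-proline state and day. The median over the 9 regions was -6.38 percentage points (-3.65 at a minimum of 30 reads, where Mest and Impact kept a single CpG each), and 26 of the 36 region pairs were lower with vitamin C. Only 7 of those 36 differences exceeded 2 counting standard errors. With 4 pairs the smallest two-sided p of the exact sign-flip permutation test is 0.125, so no region could pass 0.05, and the pairs may not be independent because the labels name no culture.

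At Mest the 5 shared CpGs averaged 35.6% in untreated cells, 46.7% with L-proline, 20.7% with vitamin C and 33.3% with both on day 2. On day 5 they averaged 33.6%, 41.1%, 22.6% and 30.2% in the same order. The 4 libraries with vitamin C were the 4 lowest, and the groups did not overlap. The mean matched difference was -12.5 points ± 1.95 (SD, n = 4; exact sign-flip permutation p = 0.125). Each single pair lay within 2 counting standard errors, which were 9.92 to 12.6 points for this short stretch of 80 bases.

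At Plagl1 the 35 shared CpGs averaged 46.8% in untreated cells, 48.7% with L-proline, 36.4% with vitamin C and 40.7% with both on day 2. The day 5 values were 40.7%, 49.4%, 39.6% and 39.0%. All libraries with vitamin C were below all without it, though untreated cells on day 5 and the combination on day 2 stood at nearly the same level. The mean matched difference was -7.49 points ± 4.36 (SD, n = 4; exact sign-flip permutation p = 0.125). With all CpGs listed for each library it was -4.80, over sets of CpGs that differ between libraries.

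At Nespas the 52 shared CpGs, in 11 blocks, averaged 37.5% untreated, 37.0% with L-proline, 30.7% with vitamin C and 36.4% with both on day 2. On day 5 the averages were 40.6%, 47.1%, 35.0% and 34.4%. The groups did not overlap, and the L-proline library of day 5 was the highest. The mean matched difference was -6.38 points ± 5.00 (SD, n = 4; exact sign-flip permutation p = 0.125), from -12.7 to -0.54. At a minimum of 20 reads it was -3.80 and at 30 reads -1.63.

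At Grb10 the 61 shared CpGs averaged 33.9% untreated, 36.2% with L-proline, 21.3% with vitamin C and 38.7% with both on day 2, and 37.4%, 41.9%, 27.5% and 30.9% on day 5. The combination on day 2 was above its L-proline match, so 3 of 4 pairs were lower and the groups overlapped. The mean difference was -7.74 points ± 6.91 (SD, n = 4; exact sign-flip permutation p = 0.25). Peg3 was lower in 4 of 4 pairs with overlapping groups, at -7.32 points ± 2.96 (SD, n = 4; exact sign-flip permutation p = 0.125).

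Snrpn, Kcnq1ot1, Airn and Impact showed no common direction with vitamin C. Their mean differences were 0.90 ± 17.7, -4.29 ± 15.7, -2.14 ± 8.02 and 1.72 ± 4.76 points (SD, n = 4). At Snrpn, where only 2 CpGs were shared, the pairs ran from -21.8 to 20.2 points. At Kcnq1ot1 they ran from -24.7 to 10.2.

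The mean vitamin C differences of the regions were less negative than those of other CpGs with a like mean level over all 8 libraries. Each region was set against all other autosomal CpGs of its methylation classes, whose mean difference with vitamin C was -19.7 to -12.9 points, depending on the region's mix of classes. The classes were set by the mean over all 8 libraries, those with vitamin C included. A CpG high without vitamin C and low with it thus counts as intermediate, which can gather large losses among the like CpGs. No matching on the level without vitamin C alone was run. The gap, region minus like CpGs, was positive at 9 of 9 regions as a mean over the 4 pairs, with a median of 12.8 points. It differed by day. Without L-proline it ran from -5.53 (Mest) to 11.3 points (Airn) on day 2, negative at Mest, Plagl1 and Grb10. On day 5 it ran from 8.89 (Impact) to 43.2 (Snrpn). With L-proline it ran from -8.02 (Snrpn) to 19.3 (Kcnq1ot1) on day 2, and from 3.79 (Kcnq1ot1) to 39.4 (Snrpn) on day 5. It was positive in 4 of 4 pairs at Nespas (12.8 ± 7.01), Peg3 (12.3 ± 5.94), Kcnq1ot1 (15.3 ± 15.8), Airn (17.5 ± 13.5) and Impact (14.6 ± 9.49; SD, n = 4, exact sign-flip permutation p = 0.125 at each). Impact had little room for a loss, at 5.08% in untreated cells on day 5. In that pair other CpGs of its classes, 5% to 20% and 20% to 40%, changed by -10.1 and -23.1 points. Even a complete loss at Impact would have left a positive gap there, so its sign was fixed in advance in at least that pair. Mest was nearest to the like CpGs, with a gap of 6.89 ± 11.6 (SD, n = 4; exact sign-flip permutation p = 0.375). When CpGs were matched also on the number of covered CpGs per 1 kb, 9 of 9 gaps were positive again, 6 of them in every pair.

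**Figure D2:**
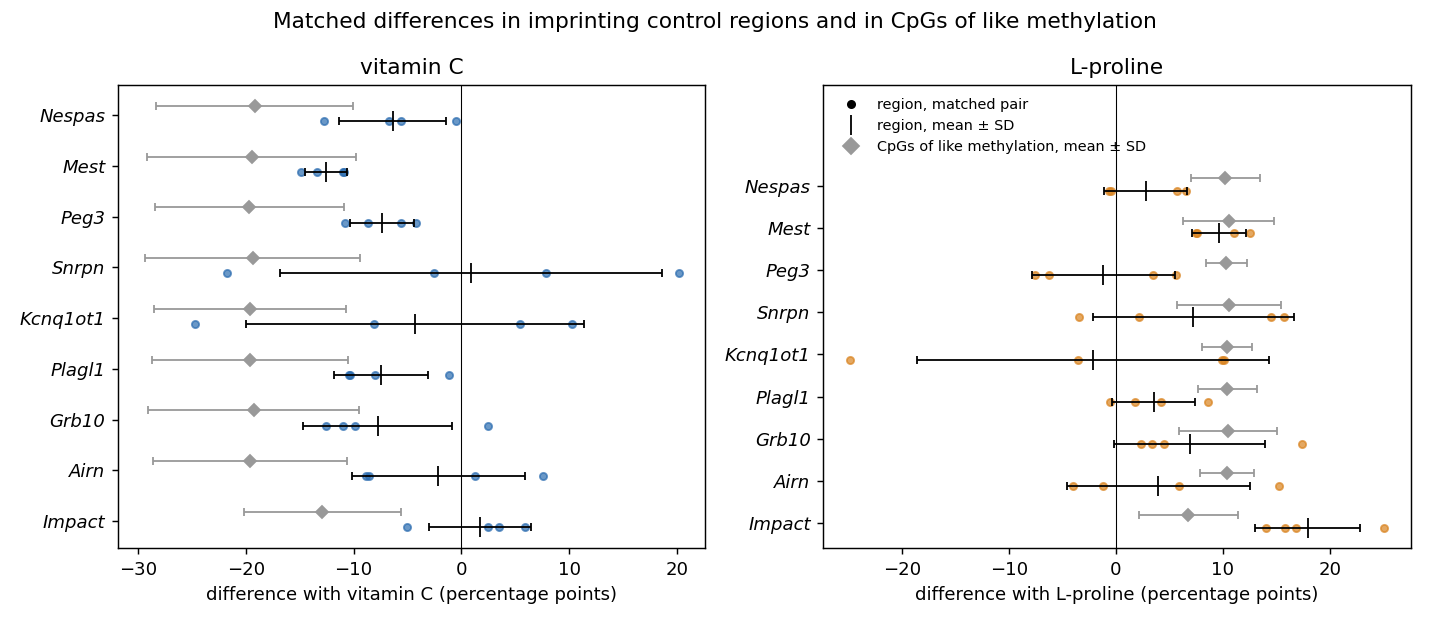
Matched differences in mean methylation (percentage points) with vitamin C (left) and with L-proline (right) at the 9 regions with shared CpGs. Coloured points are the 4 matched pairs, black bars their mean ± SD, and grey diamonds with bars the mean ± SD at autosomal CpGs of like methylation. With vitamin C the grey means lie at -19.7 to -12.9 points, below the regional mean at 9 of 9 regions.

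The same was seen CpG by CpG. Among intermediate CpGs of the control regions, 37 of 175 (21.1%) were lower with vitamin C in all 4 pairs, against 52.4% of all intermediate CpGs. Intermediate is by the mean over all 8 libraries, with the limit given above. Grb10 held 20 of the 37 and Nespas 8. CpGs of a stretch share reads, so these counts are descriptions.

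A fit in limma to reads summed over 1 kb tiles gave 13 tiles in the control regions among 50167, 12 of them at intermediate methylation. For vitamin C, 0 of the 13 were called lower at an adjusted p under 0.05 and at least 10 points, while 23.2% of all tiles were. At an unadjusted p under 0.05 from limma, 2 of the 13 were lower, against 47.7% of all tiles. A quasi-binomial fit of the reads called 1 of the 13 lower, the Mest tile (adjusted p = 0.0358), and 1.18% of all tiles. Of 14030 intermediate tiles elsewhere, limma called 50.4% lower, with a median difference of -16.5 points against -8.43 at the 12 tiles here. Intermediate tiles were likewise chosen by their mean over all 8 libraries, with the same limit. In a simulation over all 50167 tiles, with 100 tiles shifted by each size, the limma fit found 0% at 20 points and 83% at 60 points. Its setting differs from the data, because few tiles were shifted and they stood at higher methylation than the control regions. Adjustment over all tiles is stricter when few tiles change, so the simulation does not give the power of this fit here. By direction alone, 8 of the 13 tiles were lower in all 4 pairs against 49.0% of all tiles and 72.6% of the intermediate tiles elsewhere. Without overlap, 4 of 13 were lower, against 26.2% of all tiles and 37.9% of the intermediate ones elsewhere.

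As an alternative, every library was centred to one median log2 ratio, which moves the term of each tile by the same amount. The vitamin C term of the median tile was -0.93 on the log2 scale of methylated to unmethylated reads, and centring moved it to 0.52. With this shift the 13 tiles went from 12 negative terms to 13 positive ones, a change of sign that the shift itself sets. A positive centred term need not lie above the median tile: the Nespas tile from 174126001 had 0.34 against 0.52. After centring, 3 of the 13 had a positive term at an adjusted p under 0.05 in limma, against 12.9% of all tiles. They were at Nespas, Airn and Grb10, with uncentred differences of 1.5, -0.002 and -2.92 points, all under the 10-point minimum.

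In each window the tile with the most shared CpGs at intermediate methylation is named. The Nespas tile of chromosome 2 from 174125001 to 174126000 had 20 CpGs and fell short of a call, at -9.22 points ± 4.40 (SD, n = 4; limma adjusted p = 0.192). The Mest tile, chromosome 6 from 30689001 to 30690000, was -12.8 ± 3.19 (limma adjusted p = 0.0823). The Grb10 tile, chromosome 11 from 11926001 to 11927000 with 50 CpGs, was -9.04 ± 6.49 (limma adjusted p = 0.196). These 3 were lower in every pair. The Plagl1 tile, chromosome 10 from 12810001 to 12811000, was -7.82 ± 4.64 (limma adjusted p = 0.311), and the Peg3 tile, chromosome 7 from 6683001 to 6684000, was -6.50 ± 4.65 (limma adjusted p = 0.420), both also lower in every pair. The Kcnq1ot1 tile (chromosome 7, 150481001 to 150482000) was at -3.63 ± 15.97 and the Airn tile (chromosome 17, 12935001 to 12936000) at -0.002 ± 8.32, each lower in 2 of 4 pairs. No gene annotation of the mm9 build was used here, so exons and introns are not given.

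Nespas varied along its length, as the plot of methylation along 3 regions shows. The tile from 174124001 to 174125000, with 16 CpGs, was higher with vitamin C in 3 of 4 pairs, by 1.5 points ± 10.3 (SD, n = 4). Its neighbours from 174122001, 174123001, 174125001 and 174126001 were lower in 4 of 4 pairs, by -10.2, -13.3, -9.22 and -16.8 points. The last had only 3 CpGs and the smallest limma adjusted p among the 13, 0.0513. Apart from the tile of 20 CpGs, these tiles were singled out after their values were seen, and the difference between tiles was not tested.

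**Figure D3:**
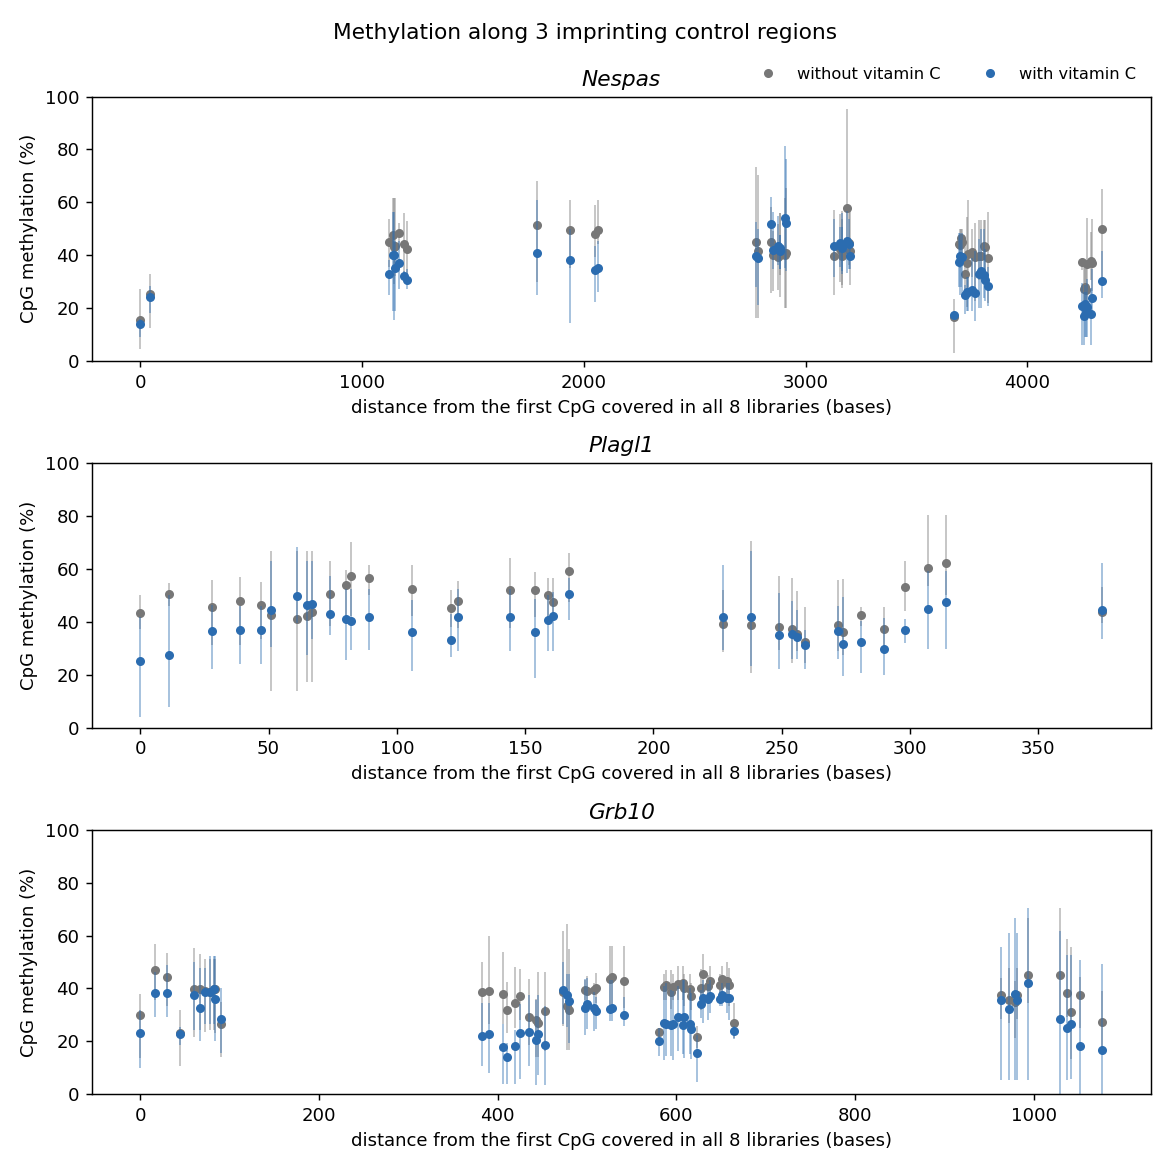
CpG methylation (%) along Nespas, Plagl1 and Grb10 against the distance in bases from the first CpG covered in all 8 libraries. Points are means and bars the lowest and highest of the 4 libraries without (grey) and with (blue) vitamin C. The blue means lie below the grey at 40 of 52 CpGs at Nespas, 28 of 35 at Plagl1 and 56 of 61 at Grb10.

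L-proline went with higher methylation at Impact. There, the 10 shared CpGs averaged 7.66% in untreated cells, 23.4% with L-proline, 10.1% with vitamin C and 27.0% with both on day 2. On day 5 they averaged 5.08%, 19.1%, 0% and 25.1%. All 4 libraries with L-proline lay above all 4 without it, and libraries with and without vitamin C overlapped. The vitamin C library of day 5 had 0 methylated of 242 CpG reads, or 57 when each block is counted once. At 3 counts of those 57 this allows a level of up to 5.26%, and the 95% Wilson interval drawn in the plot of levels reaches 6.31%.

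The mean matched difference with L-proline at Impact was 17.9 points ± 4.89 (SD, n = 4; exact sign-flip permutation p = 0.125, the smallest possible). The pairs were 15.8, 16.8, 14.0 and 25.1 points, each beyond 2 counting standard errors. Of the 10 CpGs, 9 were higher in all 4 pairs, and at 9 the groups did not overlap. Over all CpGs these shares were 6.9% and 0.895%, and over the 34416 CpGs with a mean of 5% to 20% they were 19.4% and 2.68%. The 10 CpGs lie in 3 blocks and share reads within them, so they are not independent and these counts are descriptions. The gap to CpGs of like methylation was 11.2 points ± 8.26 (SD, n = 4; exact sign-flip permutation p = 0.125), positive in 4 of 4 pairs, while the other 8 regions had negative gaps. The Impact tile, chromosome 18 from 13131001 to 13132000, was 19.3 points ± 4.83 higher, with an unadjusted limma p of 0.00260 and an adjusted p of 0.230. Over all tiles limma called 0.0% higher or lower for L-proline at the adjusted threshold, and 7613 (15.2%) were higher at an unadjusted p under 0.05, the Impact tile being the 1 of the 13 among them. The quasi-binomial fit called 19 of all tiles higher and 0 of the 13. Centring lowered the L-proline term of every tile by the same amount, which left the Impact tile at 2.15 on the log2 scale and put the other 12 below 0.

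**Figure D4:**
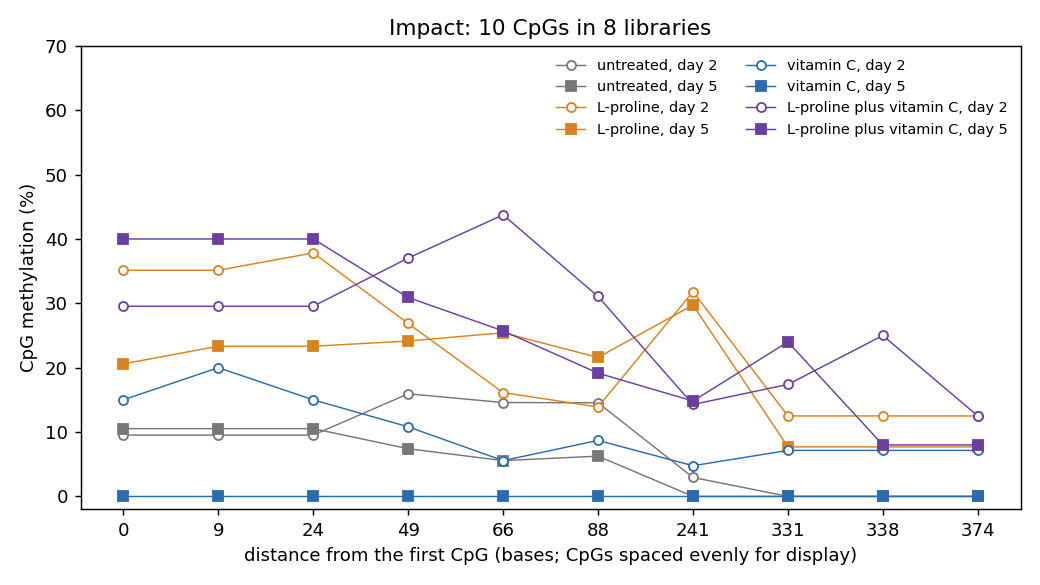
Methylation (%) of the 10 CpGs shared by all 8 libraries at Impact, spaced evenly and marked with the distance in bases from the first. Each line is 1 library, with open circles for day 2 and filled squares for day 5. The lines with L-proline (orange, purple) lie above the others at 9 of 10 CpGs, and the vitamin C library of day 5 is at 0% throughout.

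Peg10, a retrotransposon-derived gene needed in the placenta, was covered more thinly. Its 12 CpGs, from 4697355 to 4697489 on chromosome 6, were listed by 6 libraries at 10 to 40 reads. They averaged 14.3% untreated, 38.4% with L-proline, 13.9% with vitamin C and 25.9% with both on day 2, and 20.4% untreated and 42.2% with L-proline on day 5. Without vitamin C the L-proline library was higher at 12 of 12 CpGs on either day, by 24.1 points on day 2 and 21.8 on day 5. With vitamin C on day 2 it was higher by 11.99 points, at 7 of 12 CpGs. On day 5 the vitamin C library listed 5 CpGs at 22.0% and the combination 7 others at 17.4%, so this pair gave no comparison. Vitamin C differences were taken over the CpGs that both libraries list. Without and with L-proline they were -0.38 and -12.5 points on day 2, over 12 CpGs. On day 5 they were 20.5 points without L-proline, higher at 5 of 5 CpGs, and -35.6 with it, lower at 7 of 7 others. The 12 CpGs lie in 1 short stretch and share reads, and no region test was made.

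At the other regions differences with L-proline were smaller. Mest was higher in 4 of 4 pairs, by 9.68 points ± 2.53 (SD, n = 4; exact sign-flip permutation p = 0.125), with overlapping groups. At a minimum of 30 reads the difference was 4.72 points, from the single Mest CpG that reached it in all libraries. Grb10 was higher in 4 of 4 pairs by 6.92 ± 7.07 (3.41 without the vitamin C library of day 2), where the pair with vitamin C on day 2 gave 17.4 points and the others 2.38 to 4.49. The median over the 9 regions was 3.97 points, 26 of 36 region pairs were higher, and Impact alone had groups that did not overlap. At CpGs of like methylation the mean differences were 6.76 to 10.6 points, and the gap was negative at 8 of 9 regions, in all 4 pairs at Nespas, Peg3 and Plagl1. The classes were again set by the mean over all 8 libraries, those with L-proline included. Over tiles, 4 of the 13 were higher with L-proline in all pairs, against 28.0% of all tiles and 47.9% of the intermediate tiles elsewhere. The Impact tile was the 1 of 13 that was higher without overlap, against 1.87% of all tiles.

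Day 5 minus day 2 showed no common direction. The median over 9 regions was -0.97 points, from -4.73 at Impact, lower in 4 of 4 treatments, to 4.11 at Airn. For day, limma called 0.0% of all tiles in either direction and 0 of the 13. At an unadjusted p under 0.05 from limma, 0 of the 13 were higher, against 3291 (6.56%) of all tiles. In the same way 0 of the 13 were lower, against 0.973% of all tiles. The quasi-binomial fit called 7 of all tiles higher and 0 of the 13.

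Single CpGs were compared between single libraries with Fisher's exact test, called at an adjusted p under 0.05 and at least 20 points. These tests compare libraries and not conditions. For vitamin C, 0 and 0 of the 185 CpGs were called lower on day 2 without and with L-proline, and 1 and 4 on day 5, where all CpGs gave 0.487%, 0.609%, 2.95% and 5.67%. None was called higher, against 0.0263%, 0.00161%, 0.00417% and 0.012% of all CpGs. For L-proline, 0 were called higher on day 2 without vitamin C (0.0954% of all CpGs), 7 with it (0.321%), 2 on day 5 without it (0.715%) and 1 with it (0.0872%). None was called lower with L-proline, against 0.00112%, 0.0337%, 0.00771% and 0.00385% of all CpGs in the same order. Of the 7, 6 were at Grb10 and 1 at Plagl1. For day, 2 were called lower in untreated cells (0.00193% of all) and 0 higher (0.121%), and with L-proline 2 were lower (0.00915%) and 1 higher (0.884%). With vitamin C 0 were lower (0.0742%) and 0 higher (0.0308%), and with both 0 were lower (0.0146%) and 0 higher (0.00755%). No CpG was called in more than 1 of the 4 pairs of a contrast, so none met the rule for naming single CpGs.

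In the Plagl1 promoter printed above, 9 of the 15 capital CpGs were covered in all 8 libraries. The first of these, at base 232, just before the start of the gene, averaged 34.2%, and the second, at base 243, averaged 39.1%. Both were lower with vitamin C, by -18.3 points ± 16.4 and -23.1 ± 16.5 (SD, n = 4), and the vitamin C library of day 2 was lowest at 3.85% and 7.69%. The next 3, at bases 260, 271 and 279, had differences of -9.38 to -11.0 points, and the last 4, at bases 283 to 299, of 1.81 to 8.82 points. CpGs that are neighbours here share reads, and their SDs exceed most of these differences.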

How the data were processed

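The submitters' processing notes name CASAVA, BSMAP 2.88 and mm9, with no roles or settings. The authors deposited, for each CpG with at least 10 reads, its methylated fraction and its read coverage. For the handling of duplicates, mates and conversion, the sources used here are silent. Methylated reads were taken as fraction times coverage, rounded. Coverage was whole for 99.3% to 99.6% of CpGs per library.

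The windows are defined by position, but the choice of regions and tests was made with earlier results of these data known. A region's level was the mean of its CpG percentages over CpGs reaching 10 reads in each of the 8 libraries. Matched differences were tested with exact two-sided sign-flip permutation tests over 16 sign assignments. Classes of like methylation were set by the mean over all 8 libraries, with bounds at 5, 20, 40, 60, 80 and 95%. Reads were summed in 1 kb tiles with at least 3 CpGs, and log2 ratios of methylated over unmethylated reads (pseudocount 1) were fitted in limma 3.58.1 (R 4.3.3) with 1 additive term each for the supplements and the day, leaving 4 residual degrees of freedom. P-values were Benjamini-Hochberg adjusted over all tiles or CpGs. Fisher p-values came from a separate implementation of the exact test, compared with scipy 1.17.1 on simulated CpGs. Procedures were tested on simulated data. Reads carry no molecular identifiers and may be PCR copies, so Fisher tests and intervals reflect only counting error. The tile named per window is the one with the most shared CpGs among those at 20% to 80%, and single CpGs are named if called in at least 2 of 4 pairs. Alternatives for the regions were other coverage minimums, all listed CpGs, pooled reads, intermediate CpGs only, other classes and leaving out each library. For the tiles they were another pseudocount, a minimum of 20 reads, at least 5 CpGs per tile, centring, a quasi-binomial model and leaving out each library. No other tile length was tried.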

Additional observations from a re-analysis of the deposited data

Results flagged for a closer look

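Each region contrast was split in 2 ways by another factor, giving 54 splits. In 4 of them, at 2 loci, both pairs of one setting went one way and both of the other went the opposite way. The values can be read from either factor, and random signs alone would also give some such splits. Peg3 was lower with L-proline in both pairs of day 2 (-6.26 and -7.57 points) and higher in both pairs of day 5 (5.59 and 3.49), a change of 11.5 points between the days. Read as a day difference without and with L-proline, the same libraries give the same 11.5 points. Snrpn, with 2 shared CpGs, was lower with vitamin C in both pairs of day 2 (-2.57 and -21.8) and higher in both pairs of day 5 (20.2 and 7.81), a change of 26.2 points, which is again 26.2 points as a day difference without and with vitamin C. Neither difference was tested, and each rests on 1 library per treatment and day.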

How the results depend on the processing

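No paired analysis was possible because the labels give no replicate numbers to block on; the 4 matched pairs of the report are libraries that share the other treatment and day, with 1 library each. The vitamin C direction held under every alternative run at Nespas, Mest, Peg3, Plagl1 and Grb10, and the L-proline direction at Nespas, Mest, Plagl1, Grb10, Airn and Impact, on the percentage scale; centring the libraries, tried on tiles only, moved all tile terms alike, as given in the report. With 20 reads as the minimum, vitamin C reversed to -0.28 at Snrpn, 2.15 at Airn and -1.97 at Impact, and the day difference of Peg3 and the day median became 0.93. Fisher calls went from 10 of 185 CpGs to 6 of the 124 with 20 reads for L-proline, and from 5 to 2 for day. With 30 reads, Snrpn was again -0.28 and Airn 2.15, and the vitamin C median moved to -3.65. The -0.28 at Snrpn equals the lower value of its 2 shared CpGs, and with 30 reads Mest and Impact rest on a single CpG each. With all listed CpGs, vitamin C reversed to -4.60 at Snrpn and -3.86 at Impact, L-proline to -6.42 at Snrpn and 2.29 at Kcnq1ot1, and day to 9.37 at Snrpn and 1.11 as the median. The CpGs averaged in this alternative differ between libraries. With intermediate CpGs taken as 30% to 70%, the day median was 0.51. For vitamin C the quasi-binomial model called 1 of 13 tiles. Centring called 0 tiles with the 10-point minimum and, without that minimum, 3 with a positive centred term, of which Airn and Grb10 had negative differences in points. This last alternative was added after the data were seen, when it was known that these 3 tiles passed the adjusted p and missed the minimum. The cause of these changes was not tested.

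Leaving out each library in turn, the medians ranged from -7.53 to -5.39 for vitamin C, 3.41 to 5.47 for L-proline and -2.35 to 1.28 for day, and limma called 0 of 13 tiles each time. For vitamin C, Snrpn ranged from -5.51 to 8.46, Kcnq1ot1 from -9.13 to 2.52 and Airn from -5.39 to 0.088. For L-proline, Peg3 ranged from -3.44 to 0.94 and Kcnq1ot1 from -6.18 to 5.47. For day, Peg3 ranged from -5.07 to 0.36, Snrpn from -8.17 to 1.70, Kcnq1ot1 from -2.81 to 8.77 and Plagl1 from -2.35 to 0.74. The Impact difference with L-proline stayed between 15.6 and 19.2 points. Short stretches limit Mest, Peg3 and Snrpn, with 5, 5 and 2 shared CpGs.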
